A study of Mus musculus with 6 samples.

Results

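The comparison described here set the RNA bound by an antibody to N6-methyladenosine (m6A) against the Input RNA from which it was drawn. It used 4 of the 6 libraries in the series, 2 Input and 2 anti-m6A, and its main set was the 7369 of 27179 genes that held 10 or more counts in each of the 4. The RNA came from bone marrow of C57BL/6 mice of the genotype Cxcl12-dsred/+ at postnatal day 2 (P2). Stromal cells were sorted as positive for the DsRed reporter carried by 1 copy of Cxcl12, and as negative for CD45 (blood cells), Ter119 (red cells) and CD31 (endothelium). Poly(A) RNA was taken on oligo(dT) beads, and 6% of it was kept as Input. The remainder met beads loaded for 1 h with 1.25 μg of the m6A antibody or of IgG, and after 2 h and several washes the bound RNA was released over 1 h with free m6A monophosphate. All libraries were made by Smart-seq2, which primes on the poly(A) tail and amplifies full-length cDNA before cutting it. The labels name no step that fragments the RNA, so a count belongs to a whole transcript and not to a methylated site. They also do not say whether the paired libraries came from separate mice or separate pull-downs, and the p-values therefore cover library-to-library spread alone, possibly only technical spread.

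As background, m6A is placed on adenosines of nascent mRNA by a nuclear methyltransferase complex whose catalytic subunit is Mettl3, within a short sequence context of which GGACT is the classic form. Methylated sites lie mostly in long internal exons, near stop codons and in 3′ UTRs, and the demethylases Fto and Alkbh5 can remove the mark. Reader proteins of the YTH family bind it and alter splicing, export, translation and decay of the message. In marrow, stromal cells that express Cxcl12 retain haematopoietic stem cells through that chemokine.

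Coding sequences of 3 transcripts introduce the range of the data, with GGACT in capitals, read on the transcript strand only. Timm10 has the shortest coding sequence of the largest increases described below, and its 273 coding bases hold no GGACT. Its whole transcript of 690 bases holds 2. Son has a long coding sequence and gained share, and Herc2 has the transcript with the most GGACT among the 12 largest decreases. The coding sequence of Son holds 15 in 7335 bases and that of Herc2 holds 22 in 14511. The whole transcript of Son holds 15 in 8399 bases and that of Herc2 holds 23 in 15261. Per base of whole transcript, Timm10 has the most GGACT of the 3 and Herc2 the least. For Son and Herc2 the 90 bases with the most GGACT are shown (bases 2218 to 2307 and 4186 to 4275 of the coding sequence).
Timm10: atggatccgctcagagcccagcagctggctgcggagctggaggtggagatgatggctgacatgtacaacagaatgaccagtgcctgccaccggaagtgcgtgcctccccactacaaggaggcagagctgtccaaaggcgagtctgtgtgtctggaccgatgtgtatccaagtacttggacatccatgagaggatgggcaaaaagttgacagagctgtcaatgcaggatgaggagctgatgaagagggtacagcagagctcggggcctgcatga
Son: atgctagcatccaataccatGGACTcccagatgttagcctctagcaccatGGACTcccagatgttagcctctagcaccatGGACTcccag
Herc2: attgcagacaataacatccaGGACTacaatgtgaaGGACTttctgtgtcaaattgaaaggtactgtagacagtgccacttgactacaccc

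The sequences are those of GENCODE M21 transcripts of GRCm38. GGACT occurs in 25.2% of the 103 coding sequences among the genes tested that are within 10% of the length of Timm10's, and in 9.47% of the 126364 consecutive windows of 90 coding bases. A match is a description of the sequence, and the counts do not say which adenosines were methylated. Timm10 (chromosome 2, 84827021 to 84830213, GRCm38) had 26 and 23 counts in the Input libraries and 637 and 618 in anti-m6A. Son (chromosome 16, 91647824 to 91679192) had 9530 and 10002 in Input and 16232 and 13938 in anti-m6A. Herc2 (chromosome 7, 56050124 to 56231800) had 899 and 780 in Input and 12 and 17 in anti-m6A. The groups did not overlap in any of the 3 genes: Timm10 and Son were higher in anti-m6A after scaling, and Herc2 was lower.

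Total counts were 7125578 and 9493391 in Input and 6102070 and 5133237 in anti-m6A, with 2487148 and 1278735 in IgG. The main set took 94.2% to 96.5% of the counts of each Input and anti-m6A library. More of the counts lay on few genes after the pull-down: the 100 most abundant genes held 17.7% and 18.5% of the Input libraries, 23.9% and 24.8% of anti-m6A and 28.4% and 31.4% of IgG. The Input pair was the noisier: replicates differed by a median of 0.58 on the log2 scale in Input and 0.18 in anti-m6A. A fit that leaves out 1 anti-m6A library takes its spread between replicates from this Input pair alone. Calls lost in such fits, given below, are therefore no measure of the library left out. Of the genes outside the main set, 12980 had no count in the 4 libraries. Genes at 0 in both Input libraries numbered 2686 and those at 0 in both anti-m6A libraries 1156, and 2988 had counts in both groups below the minimum. At the edge of the main set, 97 genes had a lowest count of 9 and a median log2 ratio of -1.33, and 79 had a lowest count of 10 and a median of -0.92.

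In the quasi-likelihood fit of edgeR (adjusted p up to 0.05), 1553 of the 7369 genes took a larger share in anti-m6A than in Input (21.1%) and 1687 a smaller share (22.9%), 44.0% in all. The changes were wide: the median of the genes called higher was a log2 change of 1.80, that of the genes called lower was -1.95, and 1463 and 1628 of them differed by 2-fold or more. All log2 changes here are anti-m6A minus Input, with their SE and n = 2 libraries per group, and CPM use library sizes scaled by TMM, a factor that sets the bulk of genes level between libraries. The groups did not overlap in any gene called; over all genes tested, 38.3% did not overlap with anti-m6A higher and 38.1% with anti-m6A lower. Because counts are shares of a library, a gene can rise only where others fall. With library totals in place of TMM, the median of all genes moved from -0.04 to -0.56 and the calls to 943 higher and 2378 lower, so that 28.4% in place of 47.9% of the calls were higher. The number of calls changed with the libraries used: without anti-m6A replicate 1 there were 829 and 555 calls, without replicate 2 there were 694 and 451, and without Input replicate 1 or 2 there were 2604 and 2607 higher and 2878 and 2910 lower.

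**Figure D1:**
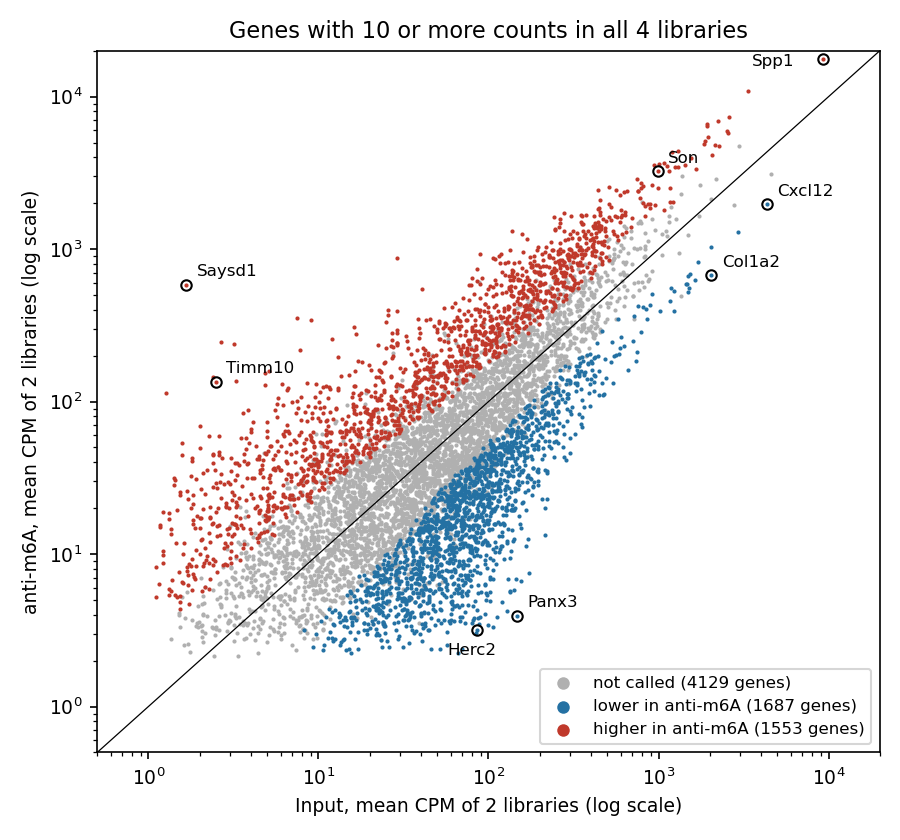
Mean CPM of each of the 7369 genes in Input (horizontal) and anti-m6A (vertical), both on log scales, coloured by the edgeR call; the line marks equal CPM. The 1553 genes higher and 1687 genes lower lie on either side of a band of 4129 genes not called, which is wider at low CPM.

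Of the 12 largest increases, 11 are described, and each started from a low Input level, of 10 to 117 counts a library; the 10 with a coding transcript had coding lengths of 273 to 750 bases. Saysd1 (chromosome 14, 20075636 to 20083172) rose most, from 1.67 ± 0.158 CPM in Input to 585 ± 86.4 CPM in anti-m6A (SD, n = 2), a log2 change of 8.44 ± 0.34 (edgeR adjusted p = 0.00585). Its counts were 17 and 16 in Input and 2731 and 2693 in anti-m6A, and IgG had none. Utp23, a factor of small ribosomal subunit assembly, went from 37 and 15 counts to 1150 and 1122. Eif4e3, a cap-binding protein of the eIF4E family, went from 27 and 20 to 714 and 634, and Timm10, a chaperone of the mitochondrial intermembrane space, changed by 5.76 ± 0.36. The others were Fam210b, Fam207a, Crygs (a crystallin), Gpihbp1 (which anchors lipoprotein lipase in capillaries), the pseudogene Sms-ps, and 2 genes that IgG beads also held. Those were Washc3, a subunit of the WASH complex, with 34 and 29 counts in Input, 1177 and 1057 in anti-m6A and 1724 and 823 in IgG, and Ptrh2, a peptidyl-tRNA hydrolase, with 66 and 28, 727 and 707 and 1938 and 988. The log2 changes of these 11 ran from 5.00 to 8.44. Sms-ps shares sequence with its parent gene, so its reads are uncertain.

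The 12 largest decreases had 480 to 1670 counts in each Input library and 10 to 29 in anti-m6A, and coding lengths of 1134 to 14511 bases. Panx3 (chromosome 9, 37659902 to 37669222), a pannexin channel of bone and cartilage cells, fell from 148 ± 5.9 CPM to 3.94 ± 1.49 CPM (SD, n = 2), with 1448 and 1472 counts in Input, 26 and 12 in anti-m6A and none in IgG. Its log2 change was -5.21 ± 0.41 (edgeR adjusted p = 0.00585). Hnrnpul2, an hnRNP-related nuclear protein, had 480 and 1670 counts in Input, which differ from each other by over 3-fold, and 16 and 15 in anti-m6A. Herc2, a giant ubiquitin ligase, changed by -4.75 ± 0.45, and Vrk1, a nuclear kinase, by -4.91 ± 0.37. Slc36a4 (an amino acid transporter), Arsb (a lysosomal sulfatase), Frk (a Src-like kinase), Cpox (a haem synthesis enzyme), Gtf2h2 (a TFIIH subunit), Akap13 and Arhgef10l (guanine nucleotide exchange factors) and Ccni (cyclin I) completed the group. Their log2 changes ran from -5.21 to -4.60, and the lowest Input value was far above the highest anti-m6A value in each. Arhgef10l had 372 and 188 counts in IgG, where Akap13 had 25 and 6 and the other 10 had none.

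**Figure D2:**
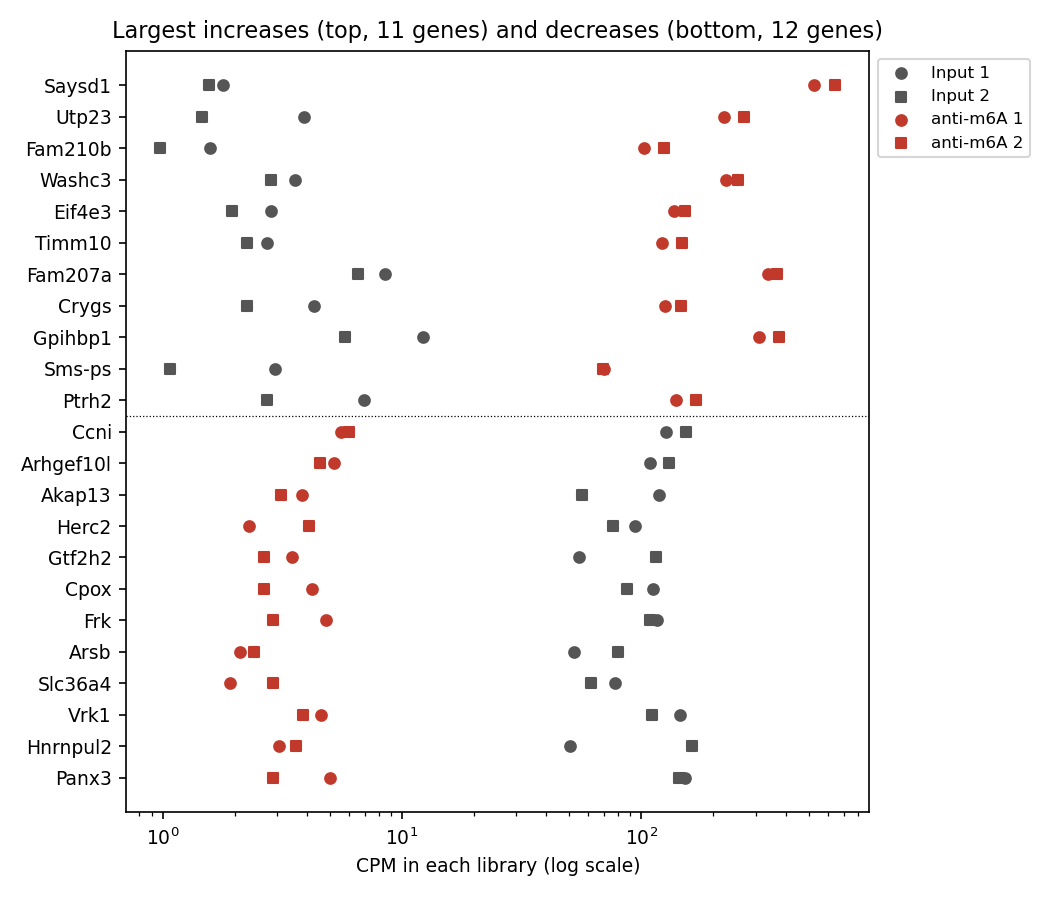
CPM on a log scale in the 2 Input and 2 anti-m6A libraries for 11 of the 12 genes with the largest increase and the 12 with the largest decrease. In each gene the 2 libraries of a group lie close together compared with the gap between the groups, the widest pair being the Input counts of 480 and 1670 for Hnrnpul2.

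Over all genes tested, 21.1% were called higher and 22.9% lower, and the calls of each list below stand beside these shares. Subunits of the respiratory chain and of the mitochondrial ribosome were mostly higher after the pull-down. Of 37 subunits of complex I, which passes electrons from NADH, 30 were higher and 2 lower, with a median log2 change of 1.43 beside -0.04 over all genes tested. ATP synthase subunits gave 13 higher and 0 lower of 17 (median 1.45), complexes II to IV 14 and 2 of 23 (1.24), and mitochondrial ribosomal proteins 47 and 7 of 72 (1.38). As a share of all counts, complex I took 1.46% and 1.52% of Input, 2.80% and 3.0% of anti-m6A and 2.08% and 1.86% of IgG. ATP synthase took 0.575% and 0.540% of Input, 0.969% and 1.00% of anti-m6A and 1.10% and 0.938% of IgG, and complexes II to IV 0.955% and 1.01%, 1.57% and 1.66%, and 1.67% and 1.59%, so that in both the IgG shares lay close to those of anti-m6A. Ndufb9, an accessory subunit, had 3468 and 5571 counts in Input and 10075 and 9479 in anti-m6A, a change of 2.21 ± 0.29 (edgeR adjusted p = 0.00602). Uqcrb of complex III changed by 2.40 ± 0.30, Atp5o of ATP synthase by 1.95 ± 0.24 and Mrpl43 of the mitochondrial ribosome by 4.04 ± 0.34, from 191 and 137 counts to 1318 and 1244.

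Some members of these machines fell. Ndufv1, which holds the NADH site of complex I, went from 2789 and 3390 counts to 477 and 385 (log2 change -1.76 ± 0.24), and Ndufa9 changed by -1.29 ± 0.26. Sdha, the flavoprotein of complex II, changed by -1.39 ± 0.27, Uqcrc2 by -1.30 ± 0.25, and of the mitochondrial ribosome Mrps9 by -3.28 ± 0.31 and Mrpl9 by -2.59 ± 0.44. Of complex I, the 19 members with transcripts of up to 908 bases were all called higher, while the 18 longer ones gave 11 higher and 2 lower. In complexes II to IV the split at 865 bases gave 12 of 12 higher against 2 higher and 2 lower of 11, and in mitochondrial ribosomal proteins the split at 1302 bases gave 30 higher and 0 lower of 36 against 17 and 7 of 36. Enzymes and carriers of the organelle gave few calls of higher: none of 15 citric acid cycle enzymes rose and 3 fell, among them Cs, citrate synthase (-1.42 ± 0.32), and Dld (-2.09 ± 0.29). Carriers of the inner membrane gave 1 higher (Slc25a39, 1.06 ± 0.29) and 4 lower of 16, with Slc25a51 at -3.09 ± 0.31. The shares called lower, 20% of citric acid cycle enzymes and 25% of carriers, were near the 22.9% over all genes tested. Import factors gave 10 and 3 of 22, from Timm10 and Tomm5 (2.41 ± 0.24) among the higher to Tomm70a (-1.62 ± 0.37) and Timm29 (-2.02 ± 0.35) among the lower. With either anti-m6A library left out, the edgeR call was lost for Cs, Ndufa9, Sdha, Slc25a39, Timm29, Tomm70a and Uqcrc2 (adjusted p from 0.0924 to 0.244). Leaving out anti-m6A replicate 2 ended the edgeR call of Mrpl9 (adjusted p = 0.0888).

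Translation genes went both ways. Of 84 cytosolic ribosomal proteins tested, 34 were higher and 3 lower, with a median of 0.81. The list took 1.80% and 1.86% of Input counts, 2.12% and 2.19% of anti-m6A and 2.08% and 2.02% of IgG. These genes have many processed copies, so their reads can be shared and single values are uncertain. Rpl39, among the smallest of them, had 13 and 16 counts in Input and 52 and 57 in anti-m6A (log2 change 3.0 ± 0.44), whereas Rpl3, a large one, had 338 and 735 and 89 and 65 (-1.71 ± 0.45). Initiation factors were balanced, with 10 higher and 9 lower of 49 (median -0.06): Eif4e3 and Eif2b2 (3.51 ± 0.40) rose, and Eif3e (-2.32 ± 0.29) and Eif4g2 (-2.31 ± 0.23) fell. Eif2b2 had 133 and 83 counts in Input, 694 and 495 in anti-m6A and 2767 and 1598 in IgG. Of Eif4g2 the Input libraries had 3445 and 3493 counts and the anti-m6A libraries 372 and 293. Of the elongation factors, 2 fell, Eef1a1 (-1.05 ± 0.22) and Eef2 (-1.14 ± 0.33), and 1 rose, Eef1d (1.38 ± 0.24). Aminoacyl-tRNA synthetases, which charge tRNAs, gave 1 higher (Aars, 2.70 ± 0.57) and 4 lower of 18, including Lars (-3.30 ± 0.39) and Gars (-2.47 ± 0.55). Aars had 79 and 33 counts in Input, 193 and 157 in anti-m6A and 518 and 228 in IgG. As for Eef1a1, Eef2 and Rpl3, the edgeR call ended on leaving out either anti-m6A library (adjusted p from 0.148 to 0.216). In edgeR the call of Eef1d was lost on leaving out anti-m6A replicate 2 (adjusted p = 0.0785).

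Among RNA-processing genes, snRNP proteins and exosome subunits were more often called higher than lower. SR proteins, hnRNP proteins, helicases and RNA-binding motif proteins were more often called lower than higher. Sm, LSm and other U snRNP proteins gave 13 higher and 1 lower of 33 (median 0.81), with Lsm1 at 2.21 ± 0.53 and Snrpd1 at 2.17 ± 0.47; the 1 that fell was Sf3a2 (-2.07 ± 0.44). None of 9 SR proteins and none of 17 hnRNP proteins was higher, while 3 and 4 were lower, with Srsf6 at -1.7 ± 0.26 and Hnrnph1 at -1.80 ± 0.26. The share of hnRNP proteins called lower, 23.5%, was near the 22.9% over all genes tested. DEAD and DEAH helicases gave 5 higher and 12 lower of 32 (median -0.64): Dhx16 went from 810 and 1311 counts to 36 and 28 and Ddx3x from 2462 and 2350 to 232 and 175, while Dhx8 rose from 57 and 16 to 311 and 233. RNA-binding motif proteins gave 2 higher and 9 lower of 25, with Rbm8a of the exon junction complex at 1.68 ± 0.23 and Rbm4b at -2.60 ± 0.38. Exosome subunits, which degrade RNA from the 3′ end, gave 3 higher and 0 lower of 9, and Exosc4 had 972 and 784 counts in Input against 2820 and 2666 in anti-m6A. For Hnrnph1 and Srsf6, the edgeR call did not hold when anti-m6A replicate 1 was left out (adjusted p from 0.0568 to 0.0585). With either anti-m6A library left out, the edgeR call was lost for Rbm4b and Sf3a2 (adjusted p from 0.0662 to 0.234).

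The transcripts of the m6A machinery itself were more often lower than higher. Of 22 writers, erasers and readers, 18 were tested, of which 2 were higher and 6 lower, with a median of -0.61. That is 11.1% higher and 33.3% lower, beside 21.1% and 22.9% over all genes tested. Among the writers, Mettl3 had 127 and 91 counts in Input and 55 and 23 in anti-m6A, with a log2 change of -0.46 ± 0.50 that did not pass the test (edgeR adjusted p = 0.49), and Mettl14 had 108 and 75 and 20 and 13 (-1.41 ± 0.45, adjusted p = 0.0527 in edgeR). Rbm15b, which guides the complex to RNA, fell from 462 and 363 to 24 and 15 (-3.34 ± 0.44), and Zc3h13, a scaffold of the complex, from 1591 and 1754 to 494 and 382 (-0.86 ± 0.24). Wtap, another partner, differed more within a group than between groups, with 4279 and 628 counts in Input and 3020 and 587 in anti-m6A, and the demethylase Alkbh5 did likewise, with 2475 and 378 and 963 and 222; replicate 1 was the higher each time. Fto, the other demethylase, fell, with 743 and 482 counts in Input and 139 and 96 in anti-m6A (-1.33 ± 0.38, edgeR adjusted p = 0.0381), and had 2236 and 1069 in IgG. Leaving out either anti-m6A library ended the edgeR call of Fto and Zc3h13 (adjusted p from 0.241 to 0.393).

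Among the readers, both YTHDC genes rose, Ythdc1 from 1008 and 1602 counts to 1531 and 1254 (1.18 ± 0.28) and Ythdc2 from 26 and 28 to 49 and 31 (1.62 ± 0.41). Of the cytoplasmic YTHDF genes, Ythdf3 fell from 434 and 366 to 24 and 10 (-3.52 ± 0.51), while Ythdf1 (0.27 ± 0.44) and Ythdf2 (-0.68 ± 0.48) were not called. Fmr1, an RNA-binding protein that has been described as a reader, had the largest decrease of the list, from 621 and 588 counts to 24 and 17 (-3.81 ± 0.37, edgeR adjusted p = 0.00585), and Igf2bp1 changed by -1.37 ± 0.41. As for Igf2bp1, Ythdc1 and Ythdc2, the edgeR call ended on leaving out either anti-m6A library (adjusted p from 0.133 to 0.439). In edgeR the call of Ythdf3 was lost on leaving out anti-m6A replicate 2 (adjusted p = 0.0509).

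A list of 15 transcripts known as methylated in other cells, written from general knowledge, did not move together. Of 12 tested, 5 were higher and 3 lower, with a median of 0.24, and of -0.19 over the 11 with a coding transcript. Split by length, the shorter members had a median of -1.04 and the longer ones of 1.19. Son, a nuclear speckle protein, had 988 ± 17.2 CPM in Input and 3230 ± 163 CPM in anti-m6A (SD, n = 2), a log2 change of 1.71 ± 0.21 (edgeR adjusted p = 0.00588), against 1142 and 409 counts in IgG. Zfp36l1, an RNA decay factor, changed by 1.75 ± 0.22, Btg2 by 2.13 ± 0.46, Creb1 by 2.07 ± 0.40 and Socs1 by 1.11 ± 0.29. Malat1, the long nuclear RNA known to carry m6A, had 25811 and 33089 counts in Input, 23904 and 20539 in anti-m6A and 7344 and 4474 in IgG, a change of 0.68 ± 0.22 that missed the threshold (edgeR adjusted p = 0.0533). The transcripts that fell were the growth gene Myc, from 576 and 1430 to 86 and 64 (-2.65 ± 0.49), the cytokine inhibitor Socs3, from 1070 and 860 to 67 and 45 (-3.05 ± 0.35), and Spen, a regulator of transcription, from 288 and 170 to 16 and 10 (-3.08 ± 0.52). Klf4 and Zbtb7b were not in the set tested, nor was Neat1, at 20 and 17 counts in Input and 8 and 12 in anti-m6A. Besides Neat1, 1 untested member of the list was at 0 in both Input libraries and had 10 or more counts in each anti-m6A library. No member was of the reverse kind. Klf2 was outside the set tested as well, with 25 and 5 counts in Input and 165 and 149 in anti-m6A. For Btg2, Creb1, Socs1 and Spen, the edgeR call did not hold when either anti-m6A library was left out (adjusted p from 0.0541 to 0.402).

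Chromatin and transcription genes went both ways. Zinc finger genes of the Zfp series gave 18 higher and 29 lower of 110 (median -0.22), with Zfp607b at 3.24 ± 0.34 and Zfp948 at -3.39 ± 0.38. Subunits of RNA polymerase II and Mediator gave 10 higher and 5 lower of 33: Polr2k went from 31 and 20 counts to 228 and 187 (4.08 ± 0.47), and Med17 from 1112 and 984 to 56 and 21 (-3.74 ± 0.47). Their members with transcripts of up to 1281 bases gave 7 higher and 0 lower of 17, and the others 3 and 5 of 16. The shorter members had the higher median in 31 of the 46 lists split at their median length, and not in the others: in chromatin remodellers the shorter members gave 2 higher and 6 lower (median -0.16) and the longer ones 6 and 4 (0.84). Likewise the medians of shorter and longer members were -1.30 and -0.13 in DEAD and DEAH helicases and -0.85 and 0.48 in Hox genes. Chromatin remodellers gave 8 higher and 10 lower of 34. Among these the large Chd7, with a transcript of 10216 bases, rose from 11 and 13 to 92 and 84 (3.94 ± 0.44) and had 341 and 117 in IgG, while Arid2 and Smarca2 fell (-2.73 ± 0.36 and -2.60 ± 0.31). Replication-dependent histones, most of which carry no poly(A) tail, gave 3 higher and 0 lower of 8, with H2bc4 at 186 and 926 counts in Input and 2007 and 1829 in anti-m6A. Histone acetylation enzymes and readers gave 4 higher and 3 lower of 20 (median -0.06). That is 20% higher and 15% lower, beside 21.1% and 22.9% over all genes tested. Among them the deacetylase genes Hdac8 (-4.11 ± 0.39) and Hdac2 (-2.37 ± 0.55) fell, and the acetyltransferase gene Kat14 rose (4.04 ± 0.53). Of 14 immediate early genes 2 rose and 4 fell, where Jun fell (-1.45 ± 0.30) and Klf10 rose (1.76 ± 0.33). With either anti-m6A library left out, the edgeR call was lost for Jun and Klf10 (adjusted p from 0.0876 to 0.144).

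Matrix lists lost share. Of 19 collagens, 11 were lower and 1 higher (median -0.99), and their part of all counts went from 0.800% and 0.820% in Input to 0.285% and 0.282% in anti-m6A, with 0.247% and 0.251% in IgG. Col1a2, a chain of the main bone collagen, had 2044 ± 242 CPM in Input and 675 ± 43 CPM in anti-m6A (SD, n = 2), and 80 and 33 counts in IgG. Col18a1 changed by -2.78 ± 0.44 and Col6a1 by -2.71 ± 0.29; the member that rose was Col13a1, a membrane collagen with 24 and 19 counts in Input and 42 and 43 in anti-m6A. Large matrix glycoproteins gave 2 higher and 13 lower of 22 (median -1.17): Postn, periostin, went from 452 and 417 counts to 30 and 10, and Nid2, a basement membrane protein, from 1250 and 1491 to 79 and 56. The small microfibril protein Mfap4 went the other way, from 18 and 27 to 312 and 246 (4.70 ± 0.42). Leaving out either anti-m6A library ended the edgeR call of Col13a1 (adjusted p from 0.0815 to 0.156). As for Postn, the edgeR call ended on leaving out anti-m6A replicate 2 (adjusted p = 0.0574).

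Matrix proteases and their inhibitors gave 1 higher and 8 lower of 21, with the gelatinase Mmp2 at 2682 and 2810 counts in Input and 233 and 173 in anti-m6A (-2.69 ± 0.25) while the member that rose was the inhibitor Timp2 (1.74 ± 0.22). Timp2 had 2402 and 2458 counts in Input, 3943 and 3718 in anti-m6A and 2910 and 1458 in IgG. Of the small leucine-rich proteoglycans, Lum (-2.45 ± 0.28) and Bgn (-2.0 ± 0.25) fell and Prelp (1.71 ± 0.47) rose. In the endoplasmic reticulum, folding enzymes gave 3 higher and 12 lower of 23 (median -1.0), with Dnajb11 at -2.60 ± 0.32 and Pdia4 at -2.38 ± 0.25, while Manf (1.38 ± 0.37) and Sdf2l1 (2.15 ± 0.25) rose. The translocon and its partners were balanced, 7 higher and 8 lower of 30: the small subunit Sec61b had 2112 and 3752 counts in Input and 5653 and 5116 in anti-m6A, and the channel gene Sec61a2 1003 and 987 and 81 and 55. In IgG, Sec61b had 2881 and 1481 counts and Manf 2405 and 1332. Vesicle coats gave 7 and 11 of 36, with Copg2 at -3.15 ± 0.44 and Sec24d at -3.09 ± 0.31 among the lower and Arf3 (4.05 ± 0.54) among the higher. In edgeR the call of Copg2 and Prelp was lost on leaving out either anti-m6A library (adjusted p from 0.0534 to 0.175). For Manf, the edgeR call did not hold when anti-m6A replicate 2 was left out (adjusted p = 0.0817).

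Signalling and turnover genes held several of the larger losses. MAP kinases and the kinases above them gave 2 higher and 10 lower of 22 (median -1.22), with Map4k3 at 572 and 1489 counts in Input and 57 and 33 in anti-m6A and Map3k14, the NF-kappaB-inducing kinase, rising from 34 and 24 to 112 and 157. Ubiquitin-specific proteases gave 1 higher and 8 lower of 17, and Usp19 fell from 934 and 663 to 22 and 13. Their median was -1.41, and 0.023 over those members whose 4 counts all reached 50. The proteasome gave 13 higher and 4 lower of 45 (median 0.66), from the assembly factor Psmg4 (2.44 ± 0.24) to the regulatory subunit Psmd1 (-2.01 ± 0.42). Pathway genes of WNT, NOTCH, BMP and hedgehog gave 10 and 12 of 42: the NOTCH target Hey1 fell from 684 and 649 counts in Input to 13 and 20 in anti-m6A, and the BMP mediator Smad5 rose from 62 and 35 to 378 and 309. Motor proteins gave 13 higher and 5 lower of 36 (median 0.72), where the light chain Myl4 changed by 3.62 ± 0.42 and Myo1c by -2.25 ± 0.41. With anti-m6A replicate 1 left out, the edgeR call was lost for Myo1c (adjusted p = 0.057). Leaving out anti-m6A replicate 2 ended the edgeR call of Psmd1 (adjusted p = 0.172).

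Metabolic lists mostly lay below the median of all genes. Solute carriers outside mitochondria gave 9 higher and 25 lower of 76 (median -0.40), with the copper transporter Slc31a1 at 1640 and 1414 counts in Input and 89 and 52 in anti-m6A. Glycolysis gave 0 higher and 3 lower of 13: Ldha, lactate dehydrogenase, changed by -1.40 ± 0.25, and Gapdh had 243 and 197 counts in Input, 25 and 23 in anti-m6A and 11 and 7 in IgG, low values for a gene with many processed copies that can share its reads. The share of glycolysis genes called lower, 23.1%, was near the 22.9% over all genes tested. Cholesterol synthesis gave 1 and 2 of 9, with Hmgcs1 at -2.66 ± 0.48 and Pmvk at 0.87 ± 0.23. Fatty acid oxidation gave 5 and 4 of 15, with the electron carrier Etfb at 5967 and 6436 counts in Input and 11124 and 10844 in anti-m6A and the carnitine palmitoyltransferase Cpt2 at 1135 and 833 and 83 and 73. Of the V-type ATPase and cathepsins 5 were higher and 5 lower of 24, from the small subunit Atp6v1f (1.75 ± 0.32) to the nucleotide-binding subunit Atp6v1b2 (-3.32 ± 0.38). Atp6v1f had 1617 and 2939 counts in Input, 3723 and 3409 in anti-m6A and 3776 and 1952 in IgG. As for Gapdh, Hmgcs1 and Pmvk, the edgeR call ended on leaving out either anti-m6A library (adjusted p from 0.0822 to 0.377). In edgeR the call of Ldha was lost on leaving out anti-m6A replicate 2 (adjusted p = 0.121).

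Over all 62 lists, 25 had a median above that of all genes tested. The plot of list medians covers those with 5 or more members tested and leaves out cell type markers.

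**Figure D3:**
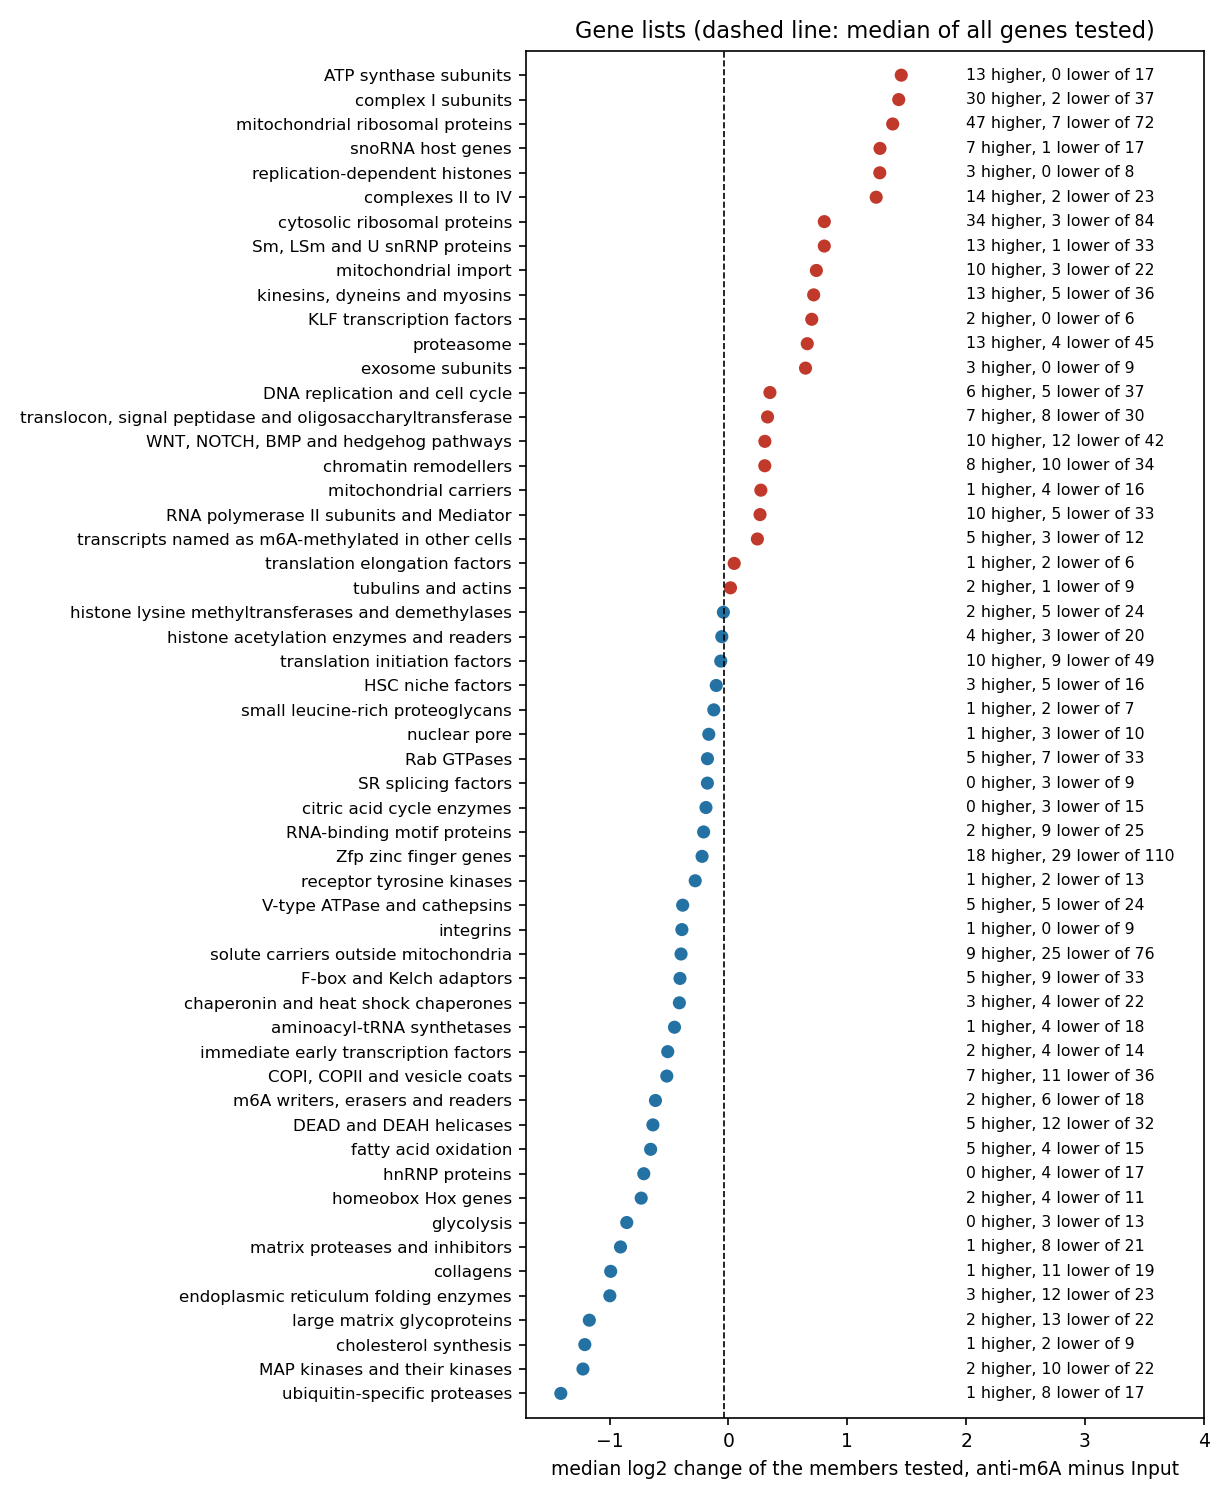
Median log2 change (horizontal, anti-m6A minus Input) of the tested members of each gene list, with the number called higher and lower at the right; the dashed line is the median of all genes, -0.04, and red and blue mark medians above and below 0. ATP synthase (1.45), complex I (1.43) and mitochondrial ribosomal proteins (1.38) stand at the top, and MAP kinases (-1.22) and ubiquitin-specific proteases (-1.41) at the bottom.

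Of the 20 markers of the sorted stroma, 17 had counts in all 4 libraries, and as a group they took a smaller share after the pull-down. They held 1.44% and 1.38% of the counts in Input, 0.772% and 0.770% in anti-m6A and 0.707% and 0.748% in IgG. Of 17 tested, 2 were higher and 7 lower (median -0.62); of the rest, Thy1 was at 0 in both Input libraries, Ly6a at 0 and 5 there, and Nt5e at 0 and 376 with 6 and 0 in anti-m6A. For the level of a marker in Input, which is bulk RNA, fewer cells of a type and less RNA per cell cannot be told apart. Cxcl12 itself (chromosome 6, 117168535 to 117181368) had 40835 and 45101 counts in Input, 9960 and 8477 in anti-m6A and 7051 and 4153 in IgG, a log2 change of -1.14 ± 0.21 (edgeR adjusted p = 0.0109). The markers that rose were Adipoq, adiponectin, from 8739 and 11135 counts to 18400 and 15391 (1.85 ± 0.22), and the BMP inhibitor Grem1, from 58 and 22 to 358 and 327 (4.16 ± 0.59). Sp7, the osteoblast factor, fell from 249 and 225 to 29 and 32 (-1.86 ± 0.42). For Cxcl12 and Sp7, the edgeR call did not hold when either anti-m6A library was left out. Without anti-m6A replicate 1 and 2 the log2 change was -1.09 and -1.18 for Cxcl12, and -1.64 and -2.11 for Sp7.

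Niche factors, the signals by which stroma supports haematopoietic stem cells, gave 3 higher and 5 lower of 16 tested (median -0.10). Those lower were Cxcl12, Kitl (stem cell factor, -1.59 ± 0.30), Angpt1 (angiopoietin 1, -1.92 ± 0.32), Bmp6 (-1.38 ± 0.29) and Csf1 (-0.99 ± 0.26). Those higher were Igf1 (0.98 ± 0.22), Pdgfa (1.41 ± 0.34) and Spp1, osteopontin (0.93 ± 0.25). Igf1 had 7193 and 9297 counts in Input, 8110 and 7189 in anti-m6A and none in IgG. All 8 factors with transcripts of up to 2902 bases escaped a call of lower, with 3 higher, and the 5 lower ones were among the 8 longer. Vcam1 (0.10 ± 0.21) and Ptn (0.41 ± 0.23) were not called. With Input replicate 1 or anti-m6A replicate 1 or anti-m6A replicate 2 left out, the edgeR call was lost for Spp1 (adjusted p from 0.0933 to 0.273). Leaving out either anti-m6A library ended the edgeR call of Bmp6, Csf1, Cxcl12, Igf1, Kitl and Pdgfa (adjusted p from 0.0565 to 0.292).

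Of the lists of other cells, those of hepatocytes took the largest share of the counts. Of the 25 hepatocyte transcripts 9 were tested, with 2 higher (Apoe, which stroma also expresses, and Hp) and 1 lower (Trf). The 25 together took 0.733% and 1.00% of Input, 1.02% and 1.04% of anti-m6A and 4.50% and 4.91% of IgG counts. Most of the list's counts in Input lay on Apoe (21591 and 29108), Hp (17751 and 27237) and Trf (11423 and 12832). Pericyte and muscle markers took 0.112% and 0.204% of Input, 0.310% and 0.331% of anti-m6A and 0.359% and 0.422% of IgG, and osteoclast markers 0.0809% and 0.0941%, 0.0294% and 0.0287%, and 0.00217% and 0.000547% of IgG. Myl9 held most of the pericyte and muscle counts in Input (7045 and 14465), and Mmp9 most of the osteoclast counts there (4772 and 7197). Erythroid markers took 0.0627% and 0.0869% of Input and 0.0982% and 0.111% of anti-m6A, with 0.431% and 0.485% in IgG, and myeloid and lymphoid markers 0.0232% to 0.0415%, with 0.369% and 0.302% in IgG. S100a9, a neutrophil protein, had 52 and 23 counts in Input, 184 and 182 in anti-m6A and 2090 and 760 in IgG. Endothelial markers took 0.0288% to 0.0523% of the 4 libraries. The part of these cells in the changes was not tested. As for Apoe, Hp and Trf, the edgeR call ended on leaving out either anti-m6A library (adjusted p from 0.0769 to 0.177).

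Of the 10 most abundant genes in anti-m6A, 9 are described, and each was called higher. They were picked by their level in anti-m6A, which by itself favours a call of higher there. Spp1, the most abundant gene, had 9248 ± 1990 CPM in Input and 17590 ± 919 CPM in anti-m6A (SD, n = 2), a change of 0.93 ± 0.25. Fth1 (ferritin, 1.69 ± 0.26), Sparc (osteonectin, 1.5 ± 0.32), Actb (1.24 ± 0.36), Apoe (1.18 ± 0.23), Mdk (midkine, 1.74 ± 0.22), Pfn1 (profilin, 1.62 ± 0.30), Id3 (1.48 ± 0.39) and Ubb (1.45 ± 0.23) also rose. Each of these 9 genes was abundant in IgG too, from 5594 and 3392 counts for Ubb to 43197 and 29674 for Spp1. The 10 most abundant Input genes included Spp1, Fth1, Sparc, Actb and Apoe, which rose as given above. Of the others, Cxcl12 and Fstl1 (-1.18 ± 0.24) fell, and Malat1, Serpine2 (-0.51 ± 0.22) and the mitochondrial CYTB (-0.55 ± 0.33) were not called. In edgeR the call of Spp1 was lost on leaving out Input replicate 1 or anti-m6A replicate 1 or anti-m6A replicate 2 (adjusted p from 0.0933 to 0.273). For Actb, the edgeR call did not hold when anti-m6A replicate 1 or Input replicate 2 was left out (adjusted p from 0.057 to 0.175). With either anti-m6A library left out, the edgeR call was lost for Apoe, Cxcl12 and Fstl1 (adjusted p from 0.0769 to 0.182). Leaving out anti-m6A replicate 2 ended the edgeR call of Sparc and Ubb (adjusted p from 0.0501 to 0.0532).

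Transcript types were compared by the direction of the calls. Protein-coding genes gave 1401 higher and 1645 lower of 6913 (median -0.09). Long non-coding RNAs gave 46 higher and 17 lower of 140 (median 0.42), and pseudogenes 67 and 13 of 187 (median 0.84), whose reads can belong to their parent genes. Hosts of small nucleolar RNAs, which are spliced non-coding transcripts with short exons, gave 7 higher and 1 lower of 17 (median 1.28), with Snhg17 at 133 and 67 counts in Input and 484 and 374 in anti-m6A and Snhg12 falling from 305 and 208 to 53 and 37. These host genes took 0.127% and 0.135% of Input counts, 0.203% and 0.203% of anti-m6A and 0.280% and 0.243% of IgG. Of the 17 tested, 9 had no count in IgG. Both ribosomal RNA genes tested were lower, with a median of -1.24. Coding transcripts of a single exon gave 36 higher and 29 lower of 137 (median 0.11). As for Snhg12, the edgeR call ended on leaving out either anti-m6A library (adjusted p from 0.338 to 0.415).

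Genes with short transcripts were more often higher after the pull-down, and genes with longer ones more often lower. The genes were put in 4 classes of about equal size by transcript length. In the class with the shortest transcripts, 204 to 1731 bases, 640 were higher and 140 lower of 1723 (median 0.73). The next class gave 267 and 455 of 1720 (median -0.28), the one after it 268 and 513 of 1722 (-0.39), and the longest, 4347 to 23495 bases, 209 and 537 of 1721 (-0.55). With library totals in place of TMM these medians ran from 0.21 to -1.08. Leaving out anti-m6A replicate 1 or 2 left 426 and 340 higher against 32 and 25 lower in the shortest class, and 93 and 87 against 191 and 159 in the longest; without Input replicate 1 or 2 the shortest class had 919 and 1035 higher against 418 and 321 lower, and the longest 451 and 381 against 814 and 885. Genes called higher had a median transcript of 1886 bases and a median of 6 exons, those called lower 3351 bases and 11 exons, and those not called 2777 bases and 9 exons. Lengths are of 1 GENCODE M21 transcript per gene, the principal coding one, for the 6886 genes that had it, and not of the form these cells express.

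**Figure D4:**
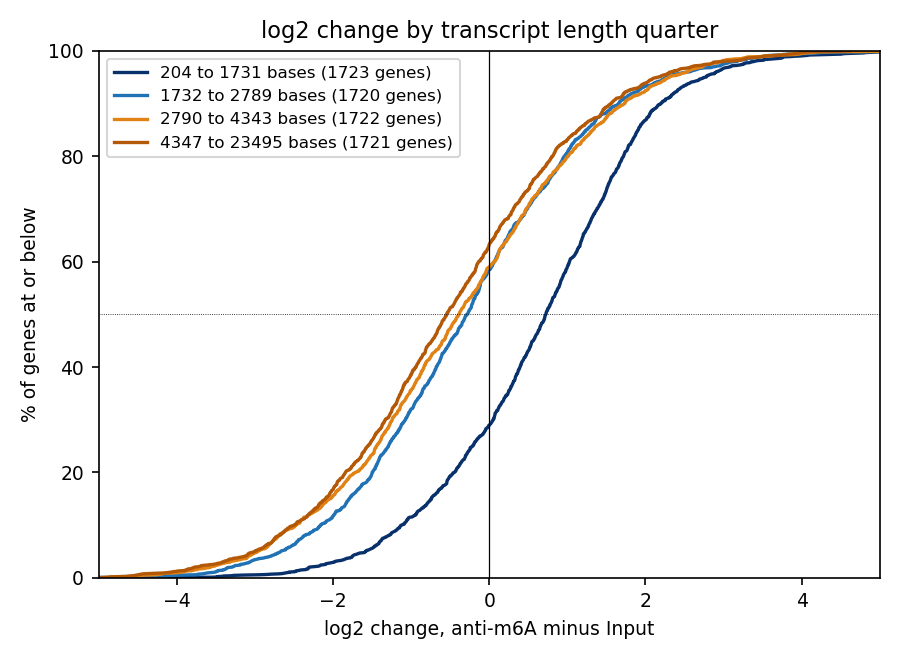
Share of genes (vertical, %) at or below each log2 change (horizontal, anti-m6A minus Input) for the 4 classes of transcript length. The curve of the shortest class lies to the right, with a median of 0.73, and the other 3 lie close together with medians from -0.28 to -0.55.

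The same shift was seen in whole libraries, and in IgG as well. Genes of the shortest class took 34.8% and 39.0% of the Input counts, 51.1% and 53.3% of anti-m6A and 50.6% and 52.7% of IgG. Genes of the longest class took 15.9% and 13.3% of Input, 8.97% and 8.24% of anti-m6A and 6.26% and 5.34% of IgG. Both Input libraries lay below all 4 pull-down libraries for the shortest class and above them for the longest. The part of binding to beads, of RNA length and of amplification in this shift was not tested.

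**Figure D5:**
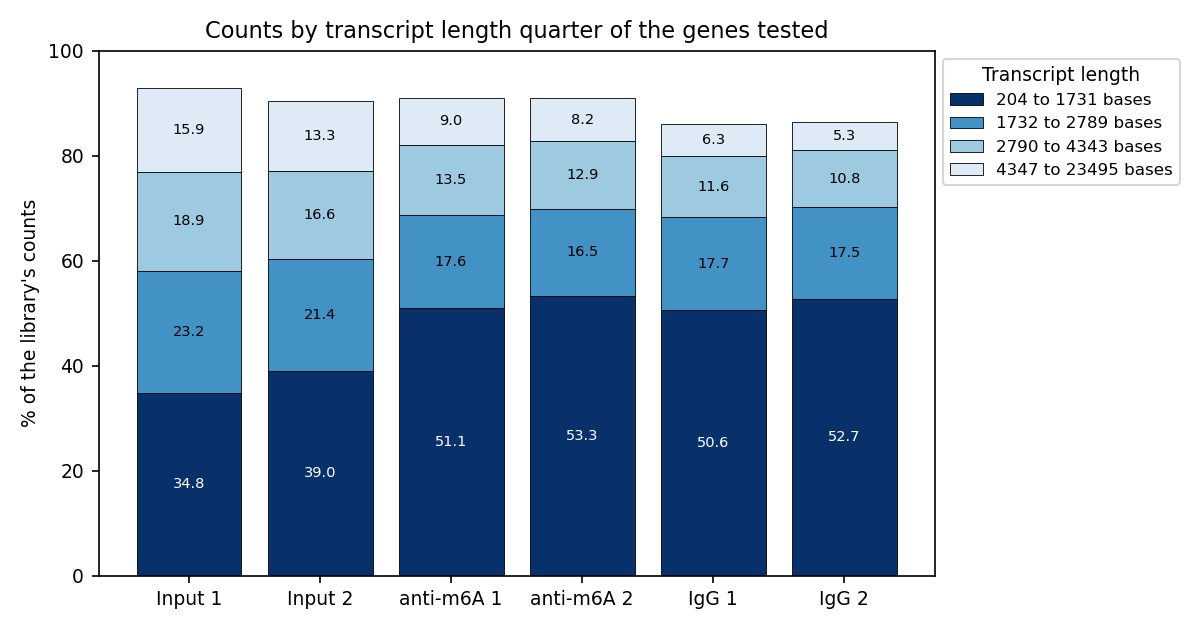
Percent of each library's counts (vertical) that fell on genes of the 4 transcript length classes of the genes tested; the rest of the counts lay on other genes. The shortest class (dark) holds 34.8% and 39.0% in Input and over 50% in each anti-m6A and IgG library.

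Other transcript features were set beside the change in the same way. Across the 6886 genes Spearman's rho with the log2 change was -0.28 for transcript length, -0.30 for coding length, -0.19 for the 3′ UTR and -0.19 for the longest internal exon, but 0.02 for GGACT per 1000 bases and 0.08 for GC content; genes share libraries and are not independent. The longest internal exon had a median of 169 bases in genes called higher and 220 in those called lower. GGACT was present in 90.6% of the coding transcripts, in 83.4% of those called higher, 95.3% of those called lower and 91.2% of those not called, and longer transcripts hold more of any motif. Per 1000 bases the medians were 1.06, 1.0 and 1.05. Within each length class, genes above and below the median GGACT density had close median changes, 0.73 and 0.71 in the shortest and -0.55 and -0.54 in the longest. A further feature was level: of 4 classes by mean CPM, the highest gave 676 higher and 227 lower of 1722 (median 0.66), and these genes had a median transcript of 1744.5 bases. That mean includes the anti-m6A libraries, so the level classes are not independent of the change.

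When each gene was set against genes of its own length, the order of the lists changed. For this, 20 finer classes by transcript length were used, and the median of the class was taken from each log2 change. ATP synthase then stood at 0.14 in place of 1.45, complexes II to IV at -0.11 in place of 1.24 and cytosolic ribosomal proteins at -0.37 in place of 0.80 (the 81 members with a coding transcript). Complex I and mitochondrial ribosomal proteins kept 0.45 and 0.50, and mitochondrial import kept 0.70. Collagens stood at -0.31 in place of -0.99 and large matrix glycoproteins at -0.48 in place of -1.17, while folding enzymes of the endoplasmic reticulum (-0.73) and MAP kinases (-0.90) stayed near their own values of -1.0 and -1.22. Among lists of long transcripts, chromatin remodellers stood at 0.58, histone lysine methyltransferases and demethylases at 0.61 and motors at 0.72. RNA polymerase II and Mediator turned from 0.27 to -0.47 and replication-dependent histones from 1.27 to -0.19. The m6A machinery stood at -0.28. Stroma markers stood at -0.16 in place of -0.62, and niche factors at 0.34 in place of -0.10. The highest value was that of KLF transcription factors (1.17, 6 members) and the lowest that of cholesterol synthesis (-1.03, 9 members). The 11 coding transcripts of the list methylated in other cells stood at -0.72 in place of -0.19. This adjustment was chosen after the length pattern was seen, and it is a description with no test.

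Genes at 0 in one group were counted apart, since only a lower bound on the fold can be given against 0. There were 1300 genes with 0 counts in both Input libraries and 10 or more in each anti-m6A library (4.78% of the 27179), and 312 of the reverse kind (1.15%). Of the 1300, 1112 were protein-coding and 38 were Zfp genes, 1211 had no count in IgG, and 259 had a mean of 100 or more counts. With 50 or more counts asked of each library, a limit chosen after the data were seen, 732 of the 1612 genes at 0 in one group were left. Isg20, an exonuclease induced by interferon, had 991 and 918 counts in anti-m6A, which is at least 676-fold higher than 3 counts per Input library would give. The export cofactor Nxt1 had 805 and 804, the replication factor Gins2 759 and 663, Zfp286 567 and 581 and Srrd 451 and 528, while Ccdc86 had 620 and 521 and also 1745 and 946 in IgG. On the other side, Scube1, a secreted protein with EGF repeats, had 1327 and 849 counts in Input, where the same limit in anti-m6A makes it at least 171-fold lower there, and Ibtk had 712 and 705. Usp13 had 388 and 1107, Serpina1b, a liver protease inhibitor, 258 and 1283, the neutrophil gene S100a8 213 and 1292, and the purine enzyme Atic 36 and 1354. Of these 4, S100a8 had 3587 and 1527 counts in IgG, Atic 2495 and 1444, Serpina1b 928 and 334 and Usp13 2 and 0. The median transcript was 2752 bases in the 1300 genes and 3529 in the 312. A 0 in a library made from little RNA does not show that the RNA was absent.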

How the data were processed

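The authors deposited 1 table of raw read counts per gene, with Entrez gene numbers and 6 library columns, per the file headers. Per the submitters' processing notes, Picard, featureCounts, edgeR 3.38.1 and mm10 were used; the aligner is not given in the sources used here. Counts carry no molecular identifiers or strand, so amplified copies and antisense reads cannot be told apart. Symbols and positions came from the RefSeq table of GRCm38.p6 (25275 of 27179 numbers, 7251 of 7369 tested), and transcripts from GENCODE M21.

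The 4 libraries were fitted in R 4.3.3 with edgeR 4.0.16 (TMM, glmQLFit, glmQLFTest, no replicate block), with Benjamini-Hochberg adjustment over 7369 genes and a threshold of 0.05. The floor for genes at 0 was 3 counts per library. On counts simulated for 7369 genes the fit recovered 4% of log2 changes of 1 and 57% of changes of 2, with 2 false calls among the genes left unchanged. The simulation changed few genes, equally up and down, and gave both groups the same spread. In the data 44.0% of the genes were called and Input was the noisier group, so the simulation does not measure the false calls made here. DESeq2 1.42.0, limma 3.58.1 (voom), other scalings, filters, a block and left-out libraries were alternatives.

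The genes and lists were chosen with earlier results of these data known, and symbols that a list's pattern had matched by mistake were removed after tables were seen. Named genes are the 12 largest changes in each direction, up to 2 called members per list and direction, the 10 most abundant per group, 6 genes at 0 per direction and 10 fixed genes; the members of the m6A and niche lists and Zfp36l1 and Socs1 were named in addition, after their values were seen. Some results are not reported here.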

Additional observations from a re-analysis of the deposited data

How the results depend on the processing

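Against 1553 higher and 1687 lower, the genes called higher numbered 943 with library totals, 3431 with the filterByExpr filter of edgeR (11262 genes tested) and 3518 with no count filter (14199 genes tested). Leaving out 1 library gave 694 to 2607 higher and 451 to 2910 lower; a group with 1 library is then assumed to vary like the other. The share of calls that were higher was 47.9% in the fit reported, 28.4% with library totals, 59.1% with filterByExpr, 61.9% with no filter, and 59.9% and 60.6% without anti-m6A replicate 1 and 2. DESeq2's Wald test gave 1695 and 1858, and voom 1627 and 1747. With the replicate block the calls were 1686 higher and 1558 lower, and same-numbered libraries correlated at 0.15 in their deviations, over only 2 pairs, which is not taken as a pairing. Genes at 0 in 1 group fell from 1612 to 732 when 50 counts were asked. The medians of 4 lists changed sign: Hox genes to 1.17 (no filter) and 0.10 (50 or more counts), ubiquitin-specific proteases to 0.023 (50 or more counts), myeloid and lymphoid markers to -1.96 (no filter) and osteoclast markers to 0.20 (filterByExpr) and 0.21 (no filter). The cause was not tested. Of 230 named genes that were called, 81 and 91 lost the call without anti-m6A replicate 1 and 2, 26 with library totals and 6 with the block, and none changed direction under the alternatives run. With 2 libraries per group, an exact permutation test of 1 gene cannot give a two-sided p under 0.333, and amplified reads make counting error a lower limit of the true error.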

Other observations

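A small set of genes followed the replicate number in both Input and anti-m6A. In 9 of the 7369 genes tested, replicate 1 was at least 4 times as high in CPM as replicate 2 in both Input and anti-m6A, and in 0 genes was replicate 2 higher by that ratio in both. Counted in each group by itself, those 9 included, the ratio was passed in Input by 97 genes with replicate 1 higher and 415 with replicate 2 higher, and in anti-m6A by 27 and 2. The 9 genes were Hsf2 (a heat shock transcription factor), Kansl1 (a subunit of a histone acetyltransferase complex), Sema4b, Sirt6 (a nuclear deacylase), Cercam, Iqsec1, Nfia (a transcription factor), Rap2b and Wtap (a partner of the m6A methyltransferase). Hsf2 had 1766 and 222 counts in Input, 755 and 81 in anti-m6A and 603 and 6 in IgG. Wtap had 4279 and 628, 3020 and 587, and 1784 and 29, and Nfia 4316 and 635, 4319 and 800, and 923 and 62. In 5 of the 9, Hsf2, Kansl1, Sirt6, Nfia and Wtap, the IgG libraries had counts and replicate 1 was again the higher; the other 4 had no count in IgG. None of the 9 was called between anti-m6A and Input. The ratio was chosen after these values were seen.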
